A study of Mus musculus with 18 samples.

Results

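The genes described here are 27 genes of cholesterol synthesis and its control by the transcription factor SREBP2, measured in mouse bone marrow-derived macrophages. They were chosen by symbol: 20 enzymes of the pathway and 7 genes that sense sterols or release SREBP2. Each symbol matched a single row of the 43309 genes in the deposited table, and all 27 passed the filter on low values that left 21336 genes for testing.

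Cells make cholesterol from acetyl-CoA. The mevalonate enzymes build isoprenoid units, these are joined into squalene, and squalene is closed to lanosterol and trimmed to cholesterol. SREBP2 is made as a membrane-bound precursor that SCAP escorts from the endoplasmic reticulum to the Golgi when sterols are scarce, where the proteases encoded by Mbtps1 and Mbtps2 cut it free to switch on most genes of the pathway. When sterols are plentiful, the INSIG proteins hold SCAP and SREBP2 back. In macrophages, which also take up sterols with engulfed material, interferons and bacterial lipopolysaccharide are known to lower sterol synthesis.

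The study set 3 genotypes side by side, all on C57BL/6. The PGRN knockout lacks progranulin (gene Grn), a secreted and lysosomal protein. The 14-3-3ε knockout is labelled as myeloid and targets Ywhae, an adaptor that binds phosphorylated proteins. The sources used here do not name its Cre driver. The third genotype is wild-type (WT). Marrow cells of every group were grown over 7 days in medium with 10% serum and 10 ng/ml M-CSF. They then received either 100 ng/ml LPS with 20 ng/ml interferon gamma for 18 h, called M1, or 20 ng/ml IL-4 for 18 h, called M2. There are 3 libraries for each of the 6 groups, 18 together. The serum supplied sterols to all groups alike, and no unstimulated group is described here, so M1 and M2 are compared with each other.

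Levels below are normalized counts, the deposited log2 values turned back to a linear scale; they are comparable between libraries of a gene and not between genes. A difference is the log2 level of the group named first minus that of the other, ± its standard error (n = 3 in each group), and a gene is said to rise or fall where limma's Benjamini-Hochberg adjusted p over all tested genes is under 0.05. Separate mice or cultures are not stated for these libraries, so p-values measure the spread between these libraries. In bulk RNA, fewer cells of a type and less RNA per cell cannot be told apart.

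Recovered depth ran from 5.16 M reads in WT M1 replicate 1 to 105 M in 14-3-3ε KO M1 replicate 1. Grn had 497, 212 and 231 normalized counts in PGRN KO M1, against 91070.0, 81989 and 91739 in WT M1, and 24.4, 23.9 and 32.2 in PGRN KO M2, against 30086, 29365 and 34556 in WT M2. Ywhae had 6214, 5191 and 5537 in 14-3-3ε KO M1, against 9859, 9021 and 9034 in WT M1, and 5088, 4362 and 5131 in 14-3-3ε KO M2, against 9015, 8203 and 8999 in WT M2, so a large part of its reads remained. All 8 macrophage markers were read in every group. Their summed level, as CPM, counts scaled to the library total, was 18712 to 22556 in PGRN KO M1, 8906 to 12489 in 14-3-3ε KO M1 and 11406 to 19386 in WT M1. In M2 it was 14096 to 15641 in PGRN KO, 3794 to 4650 in 14-3-3ε KO and 6847 to 7214 in WT, so the M2 genotypes did not overlap. All 7 stromal markers were read as well. Their summed level was 12965 to 15058 in PGRN KO M1, 30548 to 37464 in 14-3-3ε KO M1 and 16754 to 28915 in WT M1. In M2 it was 12045 to 15779 in PGRN KO, 27746 to 35396 in 14-3-3ε KO and 17757 to 27926 in WT. The stromal sum was above the macrophage sum in 14-3-3ε KO in both states and in WT M2. The ranges of the sums overlapped in WT M1 and PGRN KO M2, and the stromal sum was the lower in PGRN KO M1. These sums cover different genes, so they do not give shares of cells. Summed levels of the markers of neutrophils, lymphocytes, dendritic cells, mast cells and red cells did not exceed 298 CPM in any library. The markers of M1 and M2 followed the labels in each genotype: 7 of 7 M1 markers were higher and 6 of 6 M2 markers lower in M1.

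The stretches before the start sites of 5 members are shown, because these members stand for the patterns described below: Hmgcs1 and Ebp were lower in at least one knockout, and Hsd17b7, Insig1 and Sc5d were higher in PGRN KO. The sequences are RefSeq's on GRCm38.p6, read 5′ to 3′ on the gene's strand. Capitals mark matches, on either strand, to the degenerate sterol element TCACNNCAC, to the E-box CACGTG and to the NF-Y element CCAAT, which reads ATTGG on the other strand. Hmgcs1 lies at chr13:119690101-119690350 (plus), Hsd17b7 at chr1:169969242-169969455 (minus), Insig1 at chr5:28071162-28071362 (plus), Sc5d at chr9:42264301-42264550 (minus) and Ebp at chrX:8193513-8193762 (minus), each stretch upstream of the annotated gene start.
Hmgcs1: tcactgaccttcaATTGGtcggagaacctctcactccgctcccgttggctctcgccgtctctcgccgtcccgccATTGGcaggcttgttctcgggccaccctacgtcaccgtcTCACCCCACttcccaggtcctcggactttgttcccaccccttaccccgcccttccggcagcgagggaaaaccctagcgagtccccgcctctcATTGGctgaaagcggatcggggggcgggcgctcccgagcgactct
Hsd17b7: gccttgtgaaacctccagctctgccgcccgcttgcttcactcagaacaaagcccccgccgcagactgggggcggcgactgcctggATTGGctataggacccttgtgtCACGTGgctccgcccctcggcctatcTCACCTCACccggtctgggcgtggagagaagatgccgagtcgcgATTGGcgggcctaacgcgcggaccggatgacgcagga
Insig1: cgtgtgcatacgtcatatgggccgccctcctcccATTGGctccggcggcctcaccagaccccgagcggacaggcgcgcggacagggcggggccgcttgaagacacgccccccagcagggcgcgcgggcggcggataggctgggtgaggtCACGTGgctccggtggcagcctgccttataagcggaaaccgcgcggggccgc
Sc5d: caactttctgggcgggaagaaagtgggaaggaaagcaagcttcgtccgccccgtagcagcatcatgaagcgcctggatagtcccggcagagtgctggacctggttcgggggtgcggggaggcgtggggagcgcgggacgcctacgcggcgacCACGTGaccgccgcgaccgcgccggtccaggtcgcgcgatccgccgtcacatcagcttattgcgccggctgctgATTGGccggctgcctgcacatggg
Ebp: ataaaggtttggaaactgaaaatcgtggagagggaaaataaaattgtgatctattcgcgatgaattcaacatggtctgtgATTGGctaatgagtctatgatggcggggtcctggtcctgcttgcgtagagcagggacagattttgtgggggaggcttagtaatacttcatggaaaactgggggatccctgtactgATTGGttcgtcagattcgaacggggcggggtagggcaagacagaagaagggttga

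RefSeq windows of 250 bases before to 50 after a start were matched for 23 of the 27 members, with 29 windows; Fdps, Fdft1, Sqle and Stard4 had none matched. TCACNNCAC was in 13.8% of the members' windows (Hmgcs1, Msmo1, Hsd17b7 and Dhcr7) and in 3.77% of all 32851 windows. The stricter form TCACNCCAC was in the Hmgcs1 window alone among the members, beginning 137 bases before the start. CACGTG was in 20.7% of the members' windows (Hsd17b7, Sc5d, Dhcr7, Insig1 and Scap) and in 7.15% of all windows. Mvd, Lss, Tm7sf2, Msmo1, Nsdhl, Srebf2 and Mbtps2, also higher in PGRN KO in both states, had no CACGTG in their windows. Scap, with a match, passed in neither state. Whether an element goes with the direction of change was not tested. CCAAT was in 65.5% of the members' windows against 37.4% of all windows, and GGGCGG in 79.3% against 35.7%. In the upstream stretches printed above, Hmgcs1 holds 3 CCAAT matches and a sterol element, Hsd17b7 holds a sterol element and an E-box close together, and Ebp holds 2 CCAAT matches with neither of the other elements. These are matches of letters, counted on both strands, and no binding was measured.

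**Figure D1:**
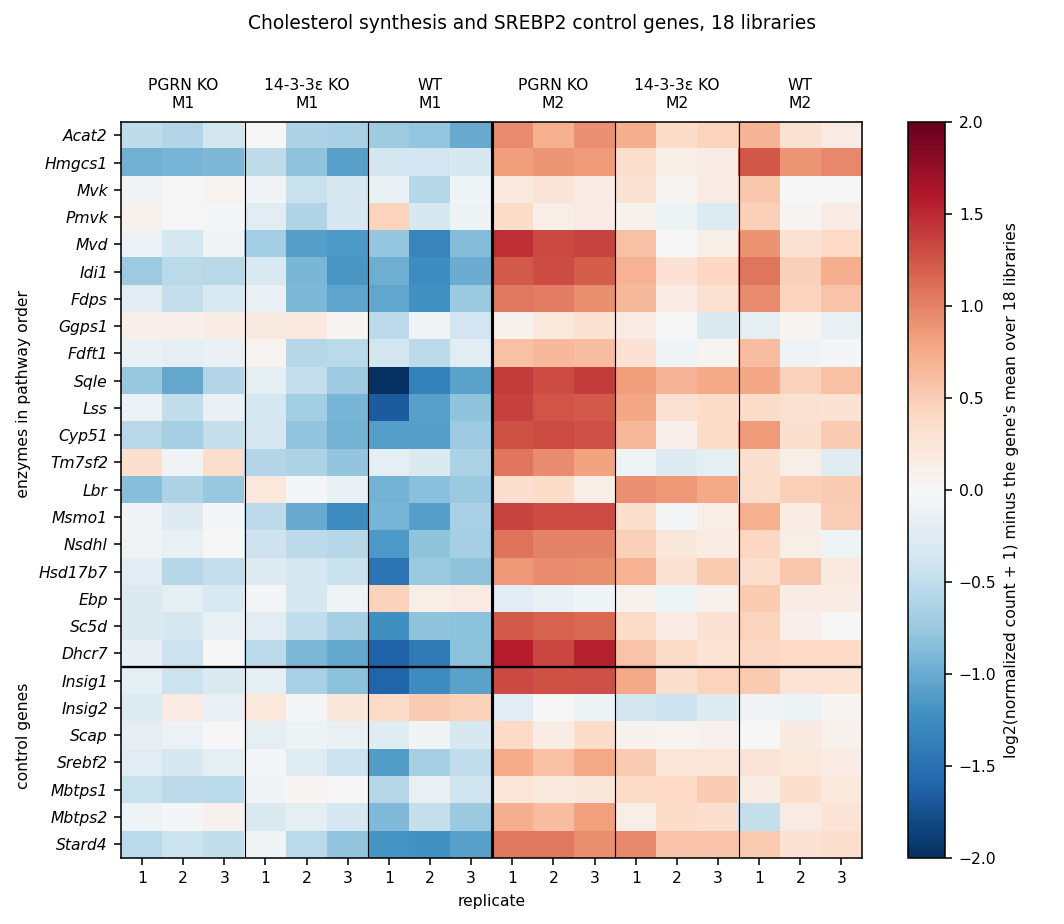
Level of the 27 members (rows, enzymes in pathway order above the line, control genes below) in 18 libraries (columns, by group and replicate), as log2(normalized count + 1) minus the gene's mean over the 18 libraries. Most rows are blue (below the mean) in M1 and red (above it) in M2, PGRN KO M2 is the deepest red, and Scap, Ebp, Insig2, Pmvk, Mvk and Ggps1 are among the pale rows.

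Cholesterol synthesis genes were lower in M1 than in M2 cultures along nearly the whole pathway. In PGRN KO, 22 of the 27 members fell and none rose, where 19.5% of all tested genes fell. In 14-3-3ε KO, 21 fell and 1 rose, where 14.4% of all genes fell and 15.6% rose. In WT, 23 fell and 1 rose, where 20.0% of all genes fell and 18.9% rose. The median log2 difference of the members was -1.33 in PGRN KO, -0.83 in 14-3-3ε KO and -1.21 in WT, beside -0.04, 0.03 and -0.04 for all genes. 20 members fell in all 3 genotypes. The highest of the 6 group means was in PGRN KO M2 for 21 members, and the lowest was in WT M1 for 19. Neither these joint calls nor this order of means was counted over all tested genes, so no share stands beside them.

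The early, mevalonate part of the pathway did not move as a block. Hmgcs1, the synthase that commits acetoacetyl-CoA to the pathway, had 1694, 1683 and 1743 normalized counts in WT M1 against 5164, 4017 and 4241 in WT M2. The WT libraries of M1 and M2 were far apart, a 2.61-fold lower level in M1 (log2 difference -1.38 ± 0.12, limma adjusted p = 5.59e-08). Acat2, the cytosolic thiolase before it, differed by -1.21 ± 0.16 in WT (limma adjusted p = 1.31e-05). The next kinases behaved otherwise. Mvk differed by -0.44 ± 0.15 in WT (limma adjusted p = 0.0279), and Pmvk, which acts on its product, had 651, 383 and 442 in WT M1 against 663, 495 and 536 in WT M2, with overlapping libraries and no call in any genotype in the main fit. Pmvk passed in WT without WT M1 replicate 1, and in 14-3-3ε KO with libraries scaled by their totals. Mvd, the decarboxylase that follows, had 321, 219 and 299 in WT M1 against 1020.5, 670.1 and 727 in WT M2, a difference of -1.52 ± 0.19 (limma adjusted p = 4.85e-06).

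Idi1, which isomerizes the basic isoprenoid unit, fell in M1 in all genotypes, with differences of -1.85 in PGRN KO, -1.26 in 14-3-3ε KO and -1.83 in WT. Fdps, which makes farnesyl diphosphate, fell as well, at -1.65 ± 0.20 in WT (limma adjusted p = 5.93e-06). Ggps1 turns farnesyl diphosphate away from sterols to make geranylgeranyl diphosphate, and it passed the threshold in no genotype. Its differences were -0.08 in PGRN KO, 0.18 in 14-3-3ε KO and -0.24 in WT. Under 3 alternatives Ggps1 did pass in WT: libraries scaled by their totals, WT M1 replicate 2 left out, and that library left out with WT M2 replicate 3. Fdft1, the squalene synthase on the sterol side of that branch, differed by -0.77 ± 0.17 in PGRN KO (limma adjusted p = 0.00183), -0.43 ± 0.17 in 14-3-3ε KO (0.0732) and -0.55 ± 0.17 in WT (0.0181). With the replicate number as a block within the 14-3-3ε KO libraries, Fdft1 joined the members past the threshold there, for 23 in place of 22. No member call was lost under that block. The differences given here for 14-3-3ε KO come from the fit without it.

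Sqle, the squalene epoxidase and a rate-limiting enzyme of the sterol part, showed the largest difference among the members in PGRN KO and in WT. It had 518, 431 and 581 normalized counts in PGRN KO M1 against 2302, 2172 and 2302 in PGRN KO M2. In 14-3-3ε KO it had 777, 629 and 531 in M1 against 1570.4, 1398 and 1489 in M2, and in WT 214, 343 and 415 in M1 against 1498, 1210.1 and 1310.0 in M2. Every M1 library lay below every M2 library. The level was 4.46-fold lower in M1 in PGRN KO (-2.16 ± 0.19, limma adjusted p = 1.02e-07), 2.32-fold lower in 14-3-3ε KO (-1.22 ± 0.19, 8.35e-05) and 4.26-fold lower in WT (-2.09 ± 0.19, 1.44e-07).

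The enzymes after squalene epoxide followed. Lss, which closes the ring to lanosterol, differed by -1.50 ± 0.19 in WT, and Cyp51, the lanosterol demethylase, by -1.53 ± 0.17 (limma adjusted p = 6.71e-06 and 1.25e-06). The 3 genes that strip methyl groups fell in each genotype. Their WT differences were -1.35 for Msmo1, -1.02 for Nsdhl and -1.37 for Hsd17b7. Dhcr7, a reductase at the end of the pathway, had 245, 284 and 427 in WT M1 against 1007, 999 and 995 in WT M2, with no overlap (-1.69 ± 0.17, limma adjusted p = 4.78e-07), and Sc5d, the desaturase before it, differed by -1.13 ± 0.14.

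Tm7sf2 and Lbr encode reductases for the same step, and Lbr is also a receptor for lamin B at the nuclear envelope. Lbr had 294, 317 and 338 in WT M1 against 726, 791 and 811 in WT M2 (-1.29 ± 0.10, limma adjusted p = 1.78e-08). Tm7sf2 had 129, 120.2 and 94.5 in WT M1 against 184, 160.3 and 125 in WT M2, where the libraries overlap (-0.44 ± 0.16, limma adjusted p = 0.0448). The WT calls of Tm7sf2, Mvk, Fdft1, Scap and Mbtps2 were lost where the fit held the WT libraries alone, which left 19 of the 24 members past the threshold. Leaving out WT M1 replicate 2 or 3, or WT M2 replicate 1 or 2, also ended the Tm7sf2 call. Without WT M1 replicate 2 or WT M2 replicate 1, Mvk and Fdft1 were lost as well, and Scap without WT M1 replicate 3 or WT M2 replicate 2. In 14-3-3ε KO, leaving out any library ended the Tm7sf2 call, all but M1 replicate 1 and M2 replicate 2 also that of Mvk, and M2 replicate 2 that of Mbtps2, with 20 to 22 members past the threshold.

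Ebp, the sterol isomerase between these steps, stood apart. It had 1080.2, 1160.4 and 1074 in PGRN KO M1 against 1143, 1215 and 1243 in PGRN KO M2, 1304, 1064 and 1266 in 14-3-3ε KO M1 against 1393, 1254 and 1409 in 14-3-3ε KO M2, and 1819, 1436 and 1481 in WT M1 against 1901, 1465 and 1475 in WT M2. The M1 and M2 libraries overlap in each genotype, and the difference in WT was -0.03 with an interval of -0.27 to 0.21 at 95%. With libraries scaled by their totals, Ebp was lower in M1 in PGRN KO and in 14-3-3ε KO.

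The genes that control SREBP2 fell too, with Insig2 going the other way. Srebf2, which encodes SREBP2, had 1525, 2094 and 2353 in WT M1 against 3979, 3817 and 3726 in WT M2, and the groups do not overlap (-0.97 ± 0.13, limma adjusted p = 1.34e-05). Insig1, itself a target of SREBP2, had 428, 542 and 616 in WT M1 against 1865, 1563 and 1563 in WT M2, a 3.17-fold lower level in M1 (-1.66 ± 0.15, limma adjusted p = 1.52e-07). Stard4, which carries sterols between membranes, differed by -1.54 ± 0.14. The proteases changed less: Mbtps1 by -0.61 ± 0.09 and Mbtps2 by -0.69 ± 0.16, and the WT libraries of Mbtps2 overlap. Scap differed by -0.29 ± 0.08 in WT (limma adjusted p = 0.0113).

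Insig2, the second INSIG gene, had 1043, 1136 and 1100.3 in WT M1 against 759.7, 748 and 824 in WT M2. All WT M1 libraries lay above the WT M2 libraries (0.49 ± 0.10, limma adjusted p = 0.0011). In 14-3-3ε KO, Insig2 had 920.1, 781 and 939 in M1 against 621, 597 and 666 in M2 (0.48 ± 0.10, 0.00169), a call that was lost when libraries were scaled by their totals. In PGRN KO it had 663, 894 and 717 in M1 against 686, 793 and 745 in M2, with overlapping libraries (0.02 ± 0.10, 0.905). Scaling by library totals moved the median of all genes by -0.16 in WT, -0.18 in PGRN KO and -0.19 in 14-3-3ε KO in these M1 to M2 differences, and no call changed direction. The shift was 0.11 for 14-3-3ε KO against WT in M2 and 0.15 between the knockouts in each state.

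**Figure D2:**
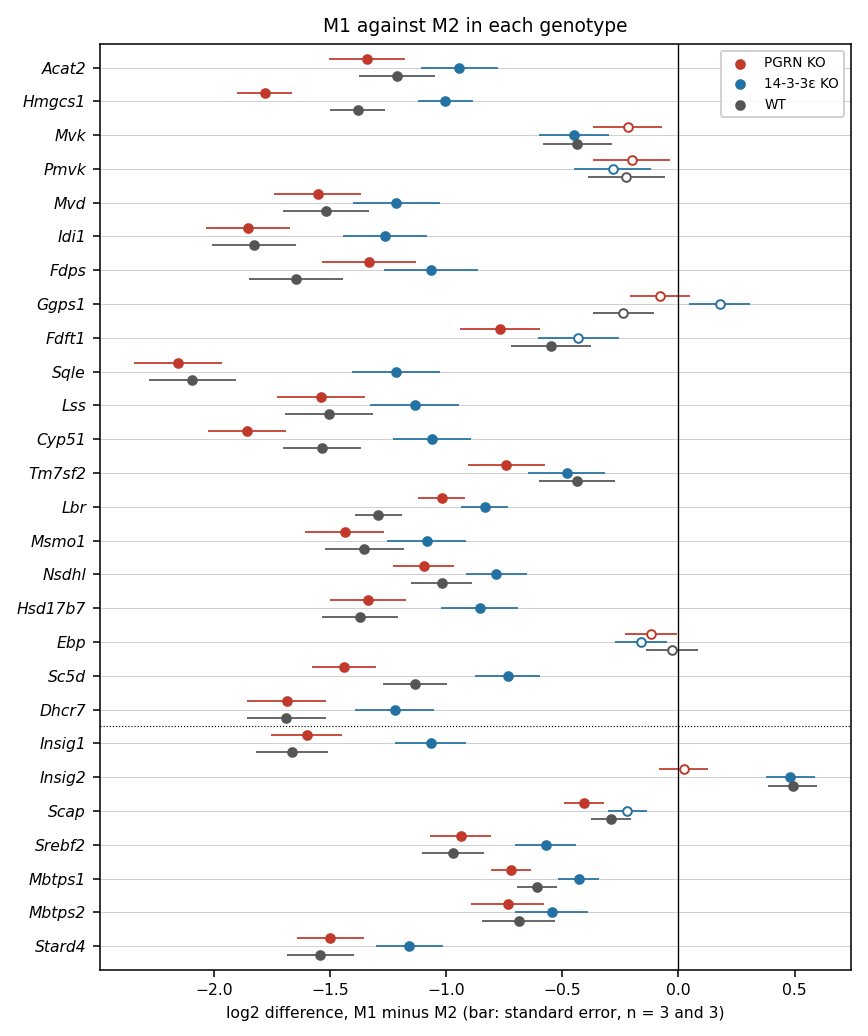
Log2 difference, M1 minus M2, of each member in PGRN KO (red), 14-3-3ε KO (blue) and WT (grey), with standard errors; filled points passed the threshold and open points did not. Sqle reaches -2.16 in PGRN KO and -2.09 in WT, and Insig2 lies at 0.48 in 14-3-3ε KO and 0.49 in WT.

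Levels of most members were higher in PGRN KO than in WT cultures in both states. These are bulk levels, and macrophage and stromal markers differed between the genotypes too. The part of the cell mix was not tested. In M1, 15 members were higher and 3 lower in PGRN KO, where 14.2% of all genes were higher and 11.1% lower. In M2, 14 were higher and 1 lower, where 11.1% of all genes were higher and 8.30% lower. The median difference was 0.51 in M1 and 0.49 in M2, against 0.01 and 0.00 over all genes. 13 members were higher in both states: Mvd, Sqle, Lss, Tm7sf2, Msmo1, Nsdhl, Hsd17b7, Sc5d and Dhcr7 among the enzymes, and Insig1, Srebf2, Mbtps2 and Stard4 among the control genes. The share of all genes higher in both states was not counted. Leaving out a library in turn gave 14 to 18 members past the threshold in M1, fewest without PGRN KO M1 replicate 3, and 12 to 16 in M2, fewest without PGRN KO M2 replicate 1. In a fit of the PGRN KO and WT M1 libraries alone, 13 members passed, without Ggps1, Sqle, Tm7sf2, Hsd17b7 and Srebf2, and 2134 of 21336 genes in place of 5399.

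Dhcr7 showed the largest PGRN KO difference. It had 671, 560.3 and 752 normalized counts in PGRN KO M1 against 245, 284 and 427 in WT M1, and 2242, 1917 and 2201 in PGRN KO M2 against 1007, 999 and 995 in WT M2. In each state all PGRN KO libraries lay above the WT libraries. The level was 2.11-fold higher in M1 (1.08 ± 0.17, limma adjusted p = 0.000242) and 2.11-fold higher in M2 (1.08 ± 0.17, 0.000316).

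Sc5d had 411, 403 and 451 in PGRN KO M1 against 214, 288 and 283 in WT M1, and 1182, 1145 and 1113 in PGRN KO M2 against 685, 538 and 503 in WT M2. The differences were 0.70 ± 0.14 in M1 and 1.01 ± 0.14 in M2 (limma adjusted p = 0.00147 and 8.51e-05). Lss had 565, 433 and 555 in PGRN KO M1 against 192, 287 and 350.5 in WT M1, a difference of 0.94 ± 0.19, and 0.97 ± 0.19 in M2. Msmo1 had 1113, 969 and 1116 in PGRN KO M1 against 606, 535 and 738 in WT M1, and 2948, 2836 and 2858 in PGRN KO M2 against 1896, 1295 and 1627 in WT M2. As with Sc5d and Lss, its libraries do not overlap in either state (0.78 ± 0.17 in M1 and 0.86 ± 0.17 in M2).

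Nsdhl was 1.74-fold higher in PGRN KO in M1 and 1.83-fold higher in M2 (limma adjusted p = 0.00036 and 0.000218). Mvd was 1.76-fold higher in M1 and 1.8-fold higher in M2, and it was the earliest enzyme of the pathway to rise in both. Sqle differed by 0.70 ± 0.19 in M1 and 0.76 ± 0.19 in M2. Tm7sf2 had 184, 139 and 189 in PGRN KO M1 against 129, 120.2 and 94.5 in WT M1, which was 0.57 ± 0.16, and 0.87 ± 0.16 in M2. Its partner reductase Lbr passed the threshold in neither state (0.10 in M1 and -0.17 in M2).

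Fdps and Ggps1 were higher in PGRN KO in M1 (0.67 ± 0.20 and 0.45 ± 0.13), and in M2 gave 0.35 and 0.29 without passing. Cyp51 was higher in M2 (0.73 ± 0.17, limma adjusted p = 0.00542) and gave 0.41 in M1 (adjusted p = 0.088). Without WT M1 replicate 3, Cyp51 passed in M1. Leaving out PGRN KO M1 replicate 3 ended the M1 calls of Fdps, Ggps1, Sqle and Tm7sf2. Those of Fdps, Tm7sf2 and Hsd17b7 were lost without PGRN KO M1 replicate 1, those of Fdps, Ggps1 and Hsd17b7 without WT M1 replicate 1, that of Fdps without WT M1 replicate 2 and that of Tm7sf2 without WT M1 replicate 3. Scaling by library totals ended the M1 calls of Fdps, Ggps1, Tm7sf2 and Hsd17b7 and the M2 call of Hsd17b7. The Hsd17b7 difference was 0.59 ± 0.16 in M1 and 0.55 ± 0.16 in M2, and its M2 call was lost without any M2 library other than WT M2 replicate 2. Acat2, Mvk, Pmvk, Idi1 and Fdft1 passed in neither state, with Idi1 at 0.47 in M1 and 0.49 in M2 and Pmvk at 0.01 and -0.02. In M2, Acat2 and Idi1 passed under the filter of 5 CPM, with only the groups compared, with the replicate block, with voom weights and without WT M2 replicate 1. Idi1 also passed at equal depth, and Fdft1 with the block, with voom weights and without that library. In M1, Idi1 passed with the block.

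Among the control genes, Insig1 had 1131, 956 and 1064 in PGRN KO M1 against 428, 542 and 616 in WT M1, and 3234, 3132 and 3179 in PGRN KO M2 against 1865, 1563 and 1563 in WT M2. It was 2-fold higher in M1 and 1.92-fold higher in M2, with no overlap in either state (1.0 ± 0.15 and 0.94 ± 0.15, limma adjusted p = 0.000182 and 0.000411). Srebf2 had 2821, 2647 and 2915 in PGRN KO M1 against 1525, 2094 and 2353 in WT M1 (0.51 ± 0.13), and 5541, 4945 and 5576 in PGRN KO M2 against 3979, 3817 and 3726 in WT M2 (0.48 ± 0.13). The M2 call of Srebf2 was lost without PGRN KO M2 replicate 1 or 3 or WT M2 replicate 3. Mbtps2 rose by 0.69 in M1 and 0.73 in M2, and Stard4 by 0.67 and 0.62. Mbtps1, the protease that makes the initial cut, gave -0.13 and -0.01, and Scap 0.11 and 0.22, none past the threshold in the main fit. Mbtps1 passed in M1 without WT M1 replicate 1. Scap passed in M2 under the filter of 5 CPM and without PGRN KO M2 replicate 2.

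3 members ran the other way in PGRN KO. Hmgcs1 had 1121, 1153 and 1174 in PGRN KO M1 against 1694, 1683 and 1743 in WT M1, with all PGRN KO libraries below WT (-0.57 ± 0.12, limma adjusted p = 0.00202). In M2 it had 3891, 4038 and 3933 in PGRN KO against 5164, 4017 and 4241 in WT, and the groups overlap (-0.17, 95% interval -0.42 to 0.08, adjusted p = 0.364). Ebp was lower in both states, with differences of -0.51 ± 0.11 in M1 and -0.42 ± 0.11 in M2 (adjusted p = 0.00325 and 0.0144); its M2 call was lost without PGRN KO M2 replicate 1 or WT M2 replicate 1. Insig2 was lower in M1 (-0.54 ± 0.10, adjusted p = 0.00126) and gave -0.07 in M2. The stromal markers moved with the genotype too: 4 of 7 were lower in PGRN KO in M1 and 5 of 7 in M2, and of the 8 macrophage markers 4 were higher and 1 lower in M1 and 4 higher and none lower in M2. Of all genes, 14.2% were higher and 11.1% lower in M1, and 11.1% and 8.30% in M2. The part of stromal cells and macrophages in the member differences was not tested.

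**Figure D3:**
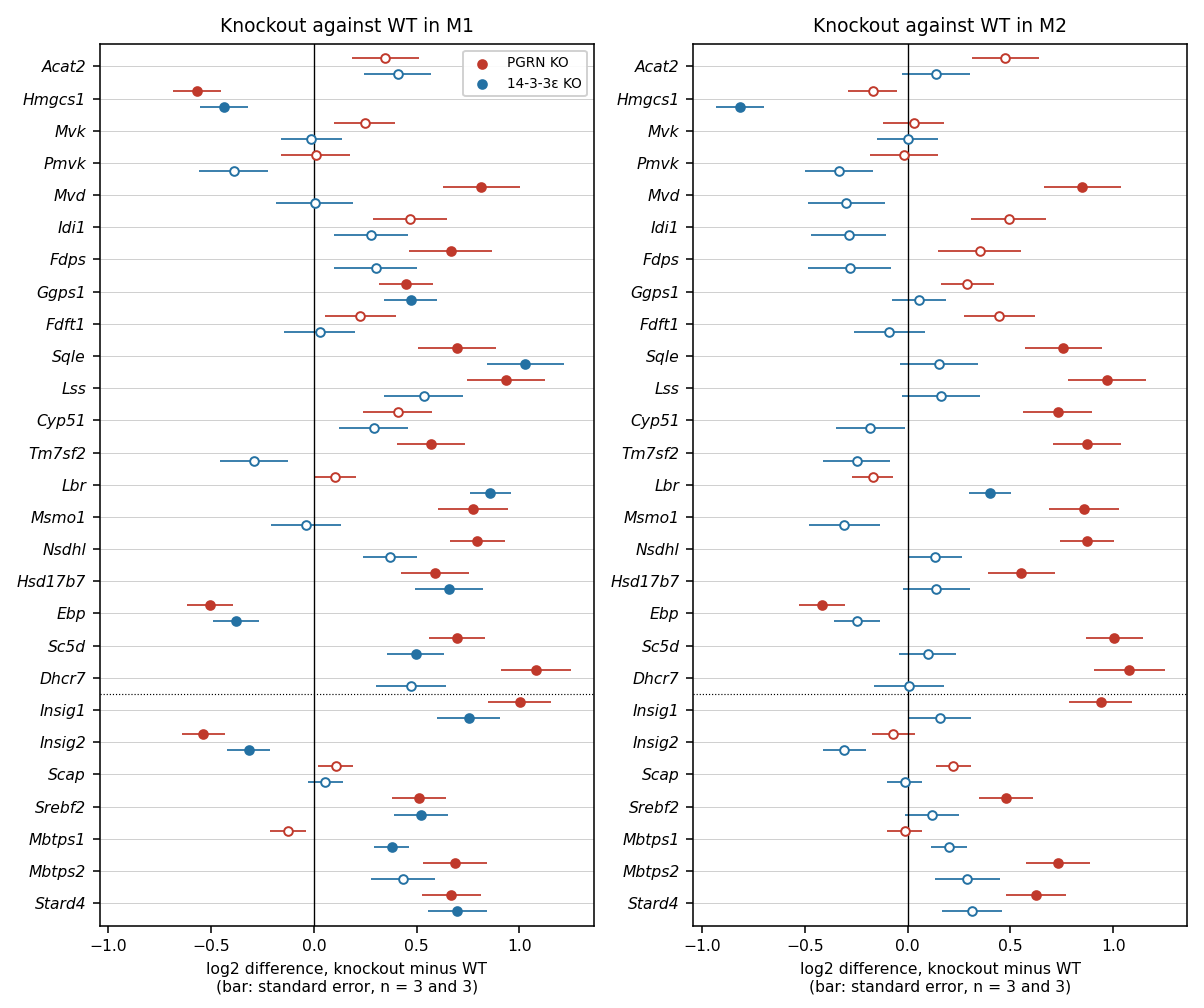
Log2 difference from WT of each member in PGRN KO (red) and 14-3-3ε KO (blue), in M1 (left) and M2 (right), with standard errors; filled points passed the threshold. PGRN KO reaches 1.08 for Dhcr7 in both states, 14-3-3ε KO reaches 1.03 for Sqle in M1, and in M2 the filled blue points are Hmgcs1 at -0.82 and Lbr at 0.40.

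The 14-3-3ε KO was set against the same WT libraries as PGRN KO. In M1, 12 members passed the threshold, 9 higher and 3 lower, where 21.3% of all genes passed in either direction. In M2, 1 was higher and 1 lower, where 3.32% were higher and 3.37% lower. At an unadjusted limma p under 0.05 in M1, 14 members were higher and 4 lower, where 19.5% of all genes were higher and 15.4% lower. The share of members lower in M1 is thus near that of all genes. The median difference was 0.37 in M1 and 0.01 in M2, beside 0.07 and 0.00 over all genes. The M1 calls rest on the spread shared by all 18 libraries: in a fit of the 14-3-3ε KO and WT M1 libraries alone, 1 member, Lbr, passed, and 385 of 21336 genes (1.80%) in place of 4541. With libraries scaled by their totals, 12 members were higher and none lower in M1, and at equal depth 10 members passed. Leaving out a library in turn gave 8 to 14. There were 8 without 14-3-3ε KO M1 replicate 1 (Ggps1, Sc5d, Insig2 and Srebf2 lost), without 14-3-3ε KO M1 replicate 2 (Hmgcs1, Ggps1, Ebp and Insig2) and without WT M1 replicate 1 (Ggps1, Ebp, Sc5d and Insig2). Insig2 was also lost without WT M1 replicate 2 or 3.

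Lbr was the member that rose in both states. It had 656, 557 and 518 normalized counts in 14-3-3ε KO M1 against 294, 317 and 338 in WT M1, and 1072, 1036 and 966 in 14-3-3ε KO M2 against 726, 791 and 811 in WT M2. In each state the knockout libraries lay above those of WT (0.86 ± 0.10 in M1 and 0.40 ± 0.10 in M2, limma adjusted p = 5.46e-05 and 0.0261). The M2 call was lost without 14-3-3ε KO M2 replicate 1 (adjusted p = 0.107) or 2 (0.0813), and without WT M2 replicate 1 (0.107) or 3 (0.0583).

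Hmgcs1 was the member that fell in both. In M1 it had 1544, 1258 and 1029 in 14-3-3ε KO against 1694, 1683 and 1743 in WT, and in M2 2789, 2378 and 2433 in 14-3-3ε KO against 5164, 4017 and 4241 in WT. All knockout libraries lay below WT (-0.44 ± 0.12 in M1 and -0.82 ± 0.12 in M2, limma adjusted p = 0.0163 and 0.000555). The M2 call held under every alternative tried. The M1 call was lost without 14-3-3ε KO M1 replicate 2 or 3 and with scaling by library totals.

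In M1, Sqle had 777, 629 and 531 in 14-3-3ε KO against 214, 343 and 415 in WT, a 2.04-fold higher level without overlap (1.03 ± 0.19, limma adjusted p = 0.00209). Insig1 had 1129.5, 828 and 732 in 14-3-3ε KO against 428, 542 and 616 in WT (0.75 ± 0.15, adjusted p = 0.00379). Stard4 rose by 0.70, Hsd17b7 by 0.66, Srebf2 by 0.52, Sc5d by 0.49, Ggps1 by 0.47 and Mbtps1 by 0.38. Ebp differed by -0.38 and Insig2 by -0.32, both lower in 14-3-3ε KO. Mvd (0.00), Msmo1 (-0.04) and Tm7sf2 (-0.29), which were higher in PGRN KO, did not pass here. Neither did Lss (0.53, limma adjusted p = 0.0562), Fdps (0.30), Nsdhl, Dhcr7 and Mbtps2, also higher in PGRN KO in M1. The 14-3-3ε KO M1 means were 335 against 261 in WT M1 for Nsdhl, 435 against 319 for Dhcr7 and 337 against 251 for Mbtps2. Under the filter of 5 CPM, Lss, Nsdhl, Dhcr7 and Mbtps2 passed. In M1, where 21.3% of all genes passed in either direction, 4 of 7 stromal markers were higher in 14-3-3ε KO. Of the 8 macrophage markers, 2 were higher and 3 lower. The part of stromal cells and macrophages in the member differences was not tested.

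In M2, 25 members did not pass in 14-3-3ε KO. Dhcr7 had 1126, 984 and 914 in 14-3-3ε KO against 1007, 999 and 995 in WT, and the difference of 0.01 had a 95% interval of -0.36 to 0.37. For Insig1 the difference was 0.16 (interval -0.17 to 0.48) and for Srebf2 0.12 (-0.16 to 0.40). Insig2 gave -0.31, close to its M1 value, with an adjusted p of 0.0894.

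Both knockouts were also set directly against each other. In M1, 2 members were higher and 5 lower in 14-3-3ε KO than in PGRN KO, where 12.5% of all genes were higher and 12.5% lower; in M2, 1 was higher and 14 lower, where 8.29% were higher and 9.92% lower. The M1 shares of members are near those of all genes. Mvd, Tm7sf2, Msmo1, Nsdhl and Dhcr7 were lower in both states. Tm7sf2 had 97.7, 96.1 and 84.7 in 14-3-3ε KO M1 against 184, 139 and 189 in PGRN KO M1, and 139, 122 and 129 in 14-3-3ε KO M2 against 310.3, 285 and 257 in PGRN KO M2 (-0.86 ± 0.16 and -1.12 ± 0.16, limma adjusted p = 0.00085 and 0.000111). For Msmo1 the differences were -0.81 ± 0.17 in M1 and -1.17 ± 0.17 in M2, and for Mvd -0.81 ± 0.19 and -1.15 ± 0.19. The M1 calls of Nsdhl and Dhcr7 were lost with library totals, which gave 3 higher and 3 lower, and when 14-3-3ε KO M1 replicate 2 or 3 or PGRN KO M1 replicate 3 was left out; Nsdhl was also lost without PGRN KO M1 replicate 1.

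Further members passed in M2, and whether the difference between the knockouts changed from state to state was not tested. Hmgcs1 (-0.65 ± 0.12), Idi1 (-0.78 ± 0.18), Lss (-0.81 ± 0.19), Cyp51 (-0.91 ± 0.17), Sc5d (-0.91 ± 0.14) and Insig1 (-0.78 ± 0.15) were lower in 14-3-3ε KO. Fdps, Fdft1 and Sqle were also lower, and these 3 calls were lost together when any of 5 M2 libraries was left out (Sqle alone without the sixth, 14-3-3ε KO M2 replicate 1). Lbr was the exception, higher in 14-3-3ε KO in M1 (0.76 ± 0.10) and in M2 (0.57 ± 0.10, limma adjusted p = 3.03e-05 and 0.00059). Mbtps1 was higher in M1 (0.50 ± 0.09, adjusted p = 0.00034) and gave 0.21 in M2. All 7 stromal markers were higher in 14-3-3ε KO than in PGRN KO in M1 and 6 of 7 in M2. Of the 8 macrophage markers, 1 was higher and 4 were lower in M1, and none were higher and 4 lower in M2. Of all genes, 12.5% were higher and 12.5% lower in M1, and 8.29% and 9.92% in M2. The part of stromal cells and macrophages was not tested.

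**Figure D4:**
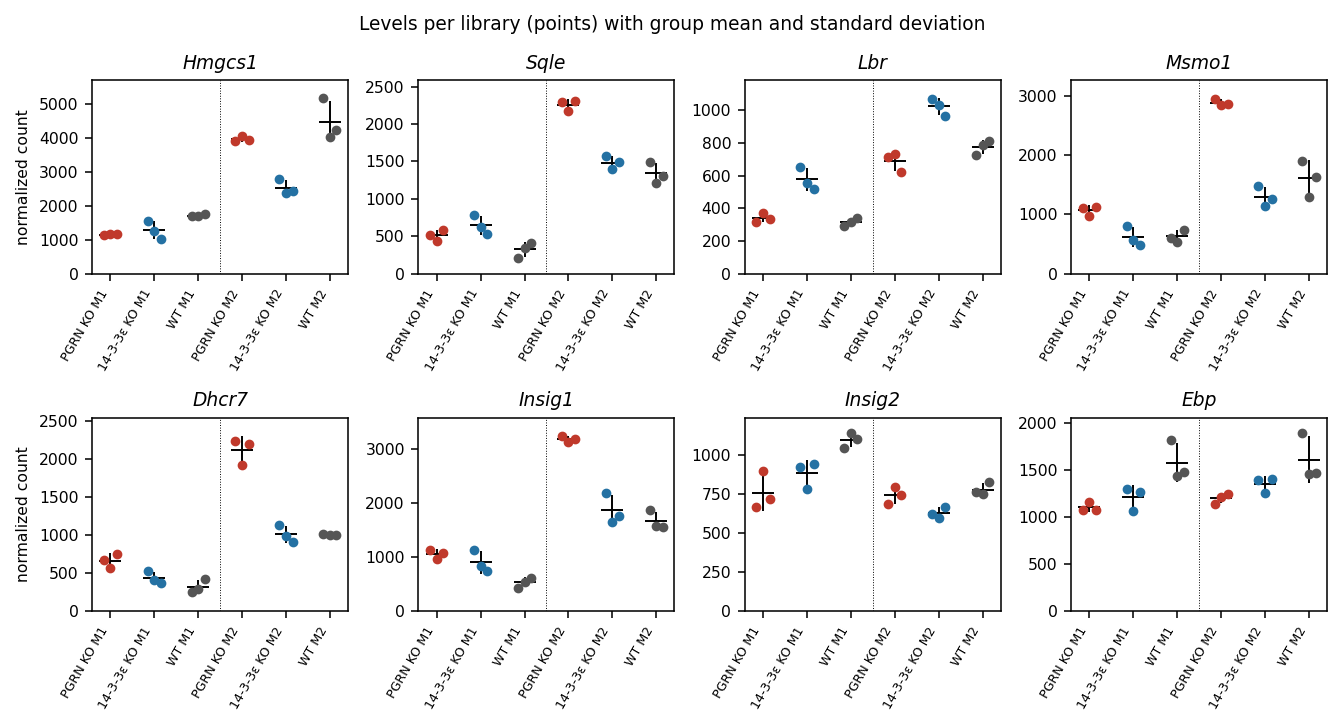
Normalized counts of 8 members in each library (points), by group, with the group mean and standard deviation (black); the axes start at 0. Msmo1, Dhcr7 and Insig1 are highest in PGRN KO M2, Lbr is highest in 14-3-3ε KO M2, Hmgcs1 in WT M2, and Insig2 in WT M1.

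Whether a knockout's effect differed between M1 and M2 was tested as an interaction. For PGRN KO no member passed, where 1.25% of all genes did, and 2 members had an unadjusted p under 0.05 in limma, as did 13.4% of all genes. The smallest adjusted p was for Insig2, whose PGRN KO difference was -0.54 in M1 and -0.07 in M2 (difference of the differences -0.47 ± 0.15, limma adjusted p = 0.146); it passed without PGRN KO M1 replicate 2. The second was Hmgcs1 (-0.40 ± 0.17, adjusted p = 0.292). For Dhcr7 the interaction was 0.00 (95% interval -0.51 to 0.51) and for Insig1 0.06 (-0.40 to 0.52). With precision weights on recovered reads no member passed either.

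For 14-3-3ε KO no member passed, where 0.286% of all genes did. With precision weights none passed either. The main test of this interaction did not pair the 14-3-3ε KO libraries by number. With the replicate number as a block over all groups, no member passed. 8 members had an unadjusted p under 0.05, all with a more positive difference in M1, where 5.92% of all genes had such a p in that direction and 4.44% in the other. The smallest adjusted p was for Sqle (0.88 ± 0.27, limma adjusted p = 0.235), followed by Lbr (0.46 ± 0.14, 0.24) and Insig1 (0.60 ± 0.22, 0.334). The median of the members was 0.37 and that of all genes 0.06. The larger number of M1 calls in this genotype is therefore not shown to differ from M2 for any single member.

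Replicates of a group did not vary gene by gene alone. In 14-3-3ε KO, replicate 1 was the highest of the 3 libraries for 22 of 27 members in M1 and for 22 in M2, where it was highest for 36.7% and 37.4% of all tested genes. WT M2 replicate 1 was the highest for 20 members, where it was highest for 37.8% of all genes. The 20 enzymes summed to 13180 normalized counts in 14-3-3ε KO M1 replicate 1, against 9997 and 9414 in the other two. In PGRN KO M2 the sums were 31076, 30342 and 30270, the tightest of the 6 groups. WT M1 replicate 1, the shallowest library, was the lowest of its group for 13 members. It was the highest for 6 members, where it was highest for 40.8% of all genes. The share of all genes lowest there was not counted.

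The related branch of fatty acid synthesis, driven mainly by SREBP1, moved in the same direction as the sterol enzymes between M1 and M2. Of 12 genes, 9 fell in M1 in WT and none rose (median -0.98), led by Fasn, fatty acid synthase (-2.29 ± 0.15), the desaturase Scd2 (-1.62 ± 0.13), the elongase Elovl6 (-1.56 ± 0.14) and Acaca, which makes malonyl-CoA (-1.12 ± 0.15). In PGRN KO against WT, 9 were higher and 1 lower in M1, and 8 higher and 1 lower in M2. The lower gene was Me1, malic enzyme, at -0.89 in M1 and -0.85 in M2, while Scd2 gave 0.90 and 0.85 and Elovl6 0.86 and 0.82. In 14-3-3ε KO, 9 of 12 were higher in M1, with Fasn at 1.18 ± 0.15 (limma adjusted p = 0.000102), and 3 in M2: Scd1 (0.64), Elovl6 (0.56) and Scd2 (0.53). Beside this list and those below, 20.0% of all genes fell and 18.9% rose in M1 in WT. In PGRN KO against WT, 14.2% were higher and 11.1% lower in M1, and 11.1% and 8.30% in M2. In 14-3-3ε KO against WT, 21.3% passed in M1 in either direction. In M2, 3.32% were higher there and 3.37% lower.

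Srebf1, which encodes SREBP1, had 3136, 3003 and 3160.1 in PGRN KO M1, 2716, 2463 and 2462 in 14-3-3ε KO M1 and 2283, 2119 and 2292 in WT M1. In M2 it had 3601, 3369.6 and 3327 in PGRN KO, 3453, 3269 and 3135 in 14-3-3ε KO and 3057, 2963 and 3077 in WT. It was lower in M1 in WT (-0.44 ± 0.06) and higher in PGRN KO than in WT in M1 (0.47 ± 0.06, limma adjusted p = 6.45e-05). In M2 its PGRN KO difference was 0.18, which did not pass (adjusted p = 0.0655).

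Genes of oxysterols and sterol export were mixed between M1 and M2 and higher in PGRN KO. Of 11 genes, 3 rose and 4 fell in M1 in WT, with Nr1h3, the oxysterol receptor LXR alpha, at 3.04 ± 0.14. In PGRN KO against WT, 8 were higher and none lower in M1, and 6 were higher and 1 lower in M2. The sterol exporter Abca1 gave 1.44 ± 0.21 in M1 and 1.45 ± 0.21 in M2, and Soat1, which esterifies cholesterol for storage, 0.80 ± 0.09 and 0.83 ± 0.09. The lower gene in M2 was Ch25h, which makes an oxysterol that restrains SREBP2. It had 176, 168 and 181 in PGRN KO M2, 418, 580.1 and 514 in 14-3-3ε KO M2 and 349, 614 and 642 in WT M2, with PGRN KO below both others (-1.56 ± 0.23 against WT, limma adjusted p = 0.000183). In M1 it had 278, 401 and 278 in PGRN KO, 558, 670.5 and 595 in 14-3-3ε KO and 579.7, 464 and 329 in WT, and the PGRN KO difference did not pass (-0.50, adjusted p = 0.123). In 14-3-3ε KO, 2 of the 11 genes were higher and 1 lower in M1, and none passed in M2 by limma, with 3 at an unadjusted p under 0.05.

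The 10 COPII genes, whose coat carries SCAP with SREBP2 out of the endoplasmic reticulum, fell in M1 for 7 in WT, led by Sec24a (-1.19 ± 0.17). In 14-3-3ε KO against WT in M1, 7 were higher and none lower. In PGRN KO, 4 were higher and 1 lower in M1, and 2 higher and 2 lower in M2. Among 9 genes that degrade sterol enzymes at the endoplasmic reticulum, 2 rose and 2 fell in M1 in WT. These counts are near the shares of all genes (18.9% rose and 20.0% fell). Of 12 genes that use isoprenoids, 3 rose and 4 fell in M1 in WT. In PGRN KO, 1 was higher (Pggt1b) and 1 lower (Fnta) in each state. That is near or below the shares of all genes (14.2% and 11.1% in M1, 11.1% and 8.30% in M2).

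Cell cycle genes moved with the sterol genes between M1 and M2: 12 of 12 were lower in M1 in each genotype, with a median of -1.30 in PGRN KO, -1.51 in 14-3-3ε KO and -1.67 in WT. In PGRN KO against WT, 1 was higher and 1 lower in M1 and 4 were lower in M2. In 14-3-3ε KO, 5 were higher and 1 lower in M1, and 1 was lower in M2. In 14-3-3ε KO against PGRN KO, 7 were higher and 1 lower in M1, and 8 higher and 1 lower in M2. Of all genes, 12.5% were higher and 12.5% lower there in M1, and 8.29% and 9.92% in M2. The part of proliferation in the member differences was not tested.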

How the data were processed

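Total RNA was sequenced from 18 libraries. Per the submitters' processing notes, STAR, RSEM 1.3.1 and DESeq2 were used; the build named there is human, the gene IDs are mouse IDs, and positions here come from GENCODE M21 on GRCm38, which matched 42425 of 43309 IDs. The authors' deposited table gives log2(normalized count + 1) per gene and library. They turned back into whole reads, to within 0.1 of a read, for 100% of values, which gave depth. Testing was by limma 3.58.1 (R 4.3.3), with a variance trend, robust estimation, a pseudocount of 1 and all 6 groups in the model. Genes needed a normalized count of 1 or more in 3 libraries, with Benjamini-Hochberg adjustment over 21336 genes and a threshold of 0.05. The design named a count test as an alternative; the unit is log2, so precision weights (voom) on the recovered reads were used in its place, chosen after the data were seen. Intervals are limma's at 95%.

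The 27 members and all lists (fatty acid, oxysterol, isoprenoid, degradation, COPII, cell cycle and cell type markers) were chosen with earlier results of these data known. All members are named; of other lists, up to 4 genes past the threshold with the smallest p per comparison, with Grn, Ywhae, Ch25h and Srebf1 in every group. Me1, Pggt1b and Fnta also meet that rule, as does a gene that is not reported here. Pairing was judged from each library's deviation from its group mean. These deviations were correlated between same-numbered M1 and M2 libraries across the more strongly expressed genes. All correlations were above 0.1, the limit set for pairing, in 14-3-3ε KO (0.51, 0.39 and 0.43) and not in PGRN KO or WT. The number was therefore taken to pair the 14-3-3ε KO libraries. The differences and p-values given for 14-3-3ε KO come from the main fit, which did not pair them. The tests were also run on simulated data, with independent libraries and a single fixed spread. Replicates here moved together, which that simulation did not include, so it cannot show how this affects the p-values. Alternatives are given in the closing section. Python 3.11.15 with pandas 2.3.3 and matplotlib 3.10.9 made tables and figures.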

Additional observations from a re-analysis of the deposited data

Results flagged for a closer look

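The PGRN KO difference of Abcg1, a sterol exporter, was larger in M1 than in M2. It was 1.65 ± 0.09 in M1 and 1.04 ± 0.09 in M2 on the log2 scale, a difference of 0.61 ± 0.13 (limma interaction adjusted p = 0.026, n = 3 libraries per group). Abcg1 had 6310, 6614 and 6096 normalized counts in PGRN KO M1, against 2065, 1995 and 2002 in WT M1. The M2 levels were 6993, 6452 and 7144 in PGRN KO against 2968, 3266 and 3841 in WT. Groups of 3 libraries were not searched for outlying libraries.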

How the results depend on the processing

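Of 137 member calls, 101 held under every alternative tried, and none of 2077 alternative values changed direction; 149 lost the threshold. The alternatives were a pseudocount of 0.1, no filter, at least 5 CPM in 3 libraries, only the groups compared, a replicate block, equal depth, library totals, dropping WT M1 replicate 2 and WT M2 replicate 3 (1.85% and 14.3% ribosomal RNA-like reads), each library left out in turn and, added after the data were seen, voom weights. For M1 14-3-3ε KO against WT, only the groups compared in the fit left 1 member past the threshold in place of 12; fewer libraries entered that fit. Leaving out a library gave 22 to 22 members in PGRN KO M1 against M2, 20 to 22 in 14-3-3ε KO, 21 to 25 in WT, 14 to 18 for PGRN KO against WT in M1 and 12 to 16 in M2, 8 to 14 for 14-3-3ε KO against WT in M1 and 1 to 2 in M2, 5 to 9 for 14-3-3ε KO against PGRN KO in M1 and 12 to 15 in M2, 0 to 1 for the PGRN KO interaction and 0 to 0 for that of 14-3-3ε KO. With the replicate block, 22, 23 and 24 members passed between M1 and M2 in PGRN KO, 14-3-3ε KO and WT; 19 and 18 for PGRN KO against WT in M1 and M2, 15 and 2 for 14-3-3ε KO against WT, 8 and 16 between the knockouts, and 0 in either interaction. No call was lost under the block. The numbers did not pair libraries outside 14-3-3ε KO (M1 and M2 gave 0.19, 0.39 and 0.04 in PGRN KO, where the third missed the 0.1 required of each, and 0.42, -0.12 and -0.42 in WT). The planned edgeR test was not run on these log2 values; voom on the recovered reads stood in for it. A read was worth 4.46 normalized counts in the shallowest library, WT M1 replicate 1, below the level of every member. Some members still rested on few reads there: 24 for Hsd17b7, 29 for Tm7sf2, 43 for Lss and 44 for Ggps1. At equal depth, the M1 calls of Hsd17b7, Tm7sf2 and Ggps1 in PGRN KO against WT were lost, and that of Lss was kept.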
